A study of Mus musculus with 24 samples.

Results

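The nuclear genes for subunits of respiratory complexes I, II, III and V were followed in the mouse myoblast line C2C12 grown in 2 media and at 2 glucose concentrations. Members were taken by symbol: Nduf with a, b, c, s or v and a number for complex I, Sdha to Sdhd for complex II, Uqcr symbols and Cyc1 for complex III, and Atp5 symbols for complex V. Each gene was read from its brightest probe set, with the array design called MA preferred over MB. This gave 65 genes of 18194 that any probe set names alone, with 35 in complex I, 4 in complex II, 9 in complex III and 17 in complex V. Of these, 63 were read on MA, and Ndufa4l2 and Ndufb4 on MB. All 65 passed the filter on dim probe sets. The symbols are those of the array annotation, and all 65 matched a mouse gene in RefSeq.

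Complex I takes electrons from NADH and complex II takes them from succinate, and both hand them to ubiquinone. Complex III passes the electrons from ubiquinol to cytochrome c, complexes I and III pump protons as they do so, and complex V, the ATP synthase, lets protons flow back to make ATP. In skeletal muscle the change from dividing myoblasts to fused myotubes is known to go with more mitochondria and more oxidative metabolism.

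C2C12 cells are an established line of dividing mouse myoblasts that can leave the cell cycle and fuse into myotubes. The titles give every culture a medium, GM or DM, which in this line commonly stand for growth and differentiation medium, a glucose concentration of 5 or 25 mM, and a number from 1 to 3. The 4 groups were GM with 25 mM glucose, GM with 5 mM, DM with 25 mM and DM with 5 mM, with 3 cultures each. The submitters asked whether calorie restriction acts on how skeletal myoblasts differentiate, and total RNA of each of the 12 cultures was put on both designs. All groups share the line, and no other agent, culture time or serum content is given in the sources used here. Nothing states that cultures of a group were grown separately, so the p-values speak for the spread among these samples alone, and that spread may be technical.

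The deposited values are probe set intensities that already shared one trimmed mean, 150.05 to 150.07 on MA. Markers fitted the labels: all 6 genes of differentiated muscle were higher in DM at both glucose levels, and their summed intensity lay between 76.6 and 216 over the GM arrays and between 20825 and 47465 over the DM arrays. The 4 cycling-cell genes tested were lower in DM. Their sums were 4220 to 4949 in GM, 1283 to 1458 in DM 25 mM and 768 to 978 in DM 5 mM. How far these changes in cell state carry the members' changes was not tested, and in bulk RNA fewer cells of a kind and less RNA per cell cannot be told apart. Of markers of other cell types, 1 of 6 adipocyte, 1 of 5 osteoblast, 1 of 6 blood and endothelium, 2 of 3 neuron and 0 of 2 liver genes passed the filter, and of these Cebpa and Cd14 were lower in DM. On MA, 4 cultures stood apart in the 18S ribosomal RNA control: GM 5 mM cultures 1 and 2, DM 25 mM culture 3 and DM 5 mM culture 2 read 23.0 to 48.1, and the other 8 read 279 to 1267. The brightest probe set in those 4 arrays reached 6719 to 9752, against 17234 to 22957 in the other 8. Members are bright, so the counts of called members below are also given with this low- or high-18S class as a block in the fit and for the 8 high-18S cultures alone.

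At 25 mM glucose 22 of the 65 members rose in DM and none fell (33.8%), where 9.74% of all 27081 tested probe sets and 15.1% of those on MA rose and 11.4% of all fell. An unadjusted p under 0.05 was reached by 28 of 65 members, against 31.6% of all. Calls are from limma with a Benjamini-Hochberg adjusted p under 0.05 over each design, on log2 of the intensity plus 20. The median log2 change over the members was 0.27, and 59 of 65 members were above 0. Over all tested probe sets the median was -0.09, and over the 1638 MA probe sets with mean intensities from 567 to 5465, which covers all but the dimmest MA members, it was -0.02 with 23.1% higher. By complex, 13 of 35 complex I genes, 2 of 4 complex II genes, 3 of 9 complex III genes and 4 of 17 complex V genes rose, with median log2 changes of 0.31, 0.32, 0.31 and 0.22. The 3 DM and 3 GM values did not overlap for 32 members, all higher in DM, and for 15.3% of tested probe sets in that direction and 20.3% in the other. The MA members' median lay 0.42 above that of all MA probe sets as deposited and 0.26 above it after quantile normalization. Centring each array on its median moved all MA probe sets alike, by 0.20. With the 18S class as a block 46 members rose and 0 fell (backgrounds 11.2% and 14.1%), and in the 8 high-18S cultures 40 rose and 0 fell (backgrounds 8.97% and 10.7%). Without DM 25 mM culture 2 the count was 13, and the share over all probe sets in that refit is not given. The Actb 3′ to 5′ log2 ratio, a sign of RNA or labelling quality, also differed between these groups, at 0.55, 0.35 and 0.34 in GM and 0.18, 0.16 and 0.12 in DM, without overlap. The 18S control read 1077, 1267 and 629 in GM and 465, 279 and 48.1 in DM, so it differed among high-18S cultures as well, and the part of either measure in the members' change was not tested.

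**Figure D1:**
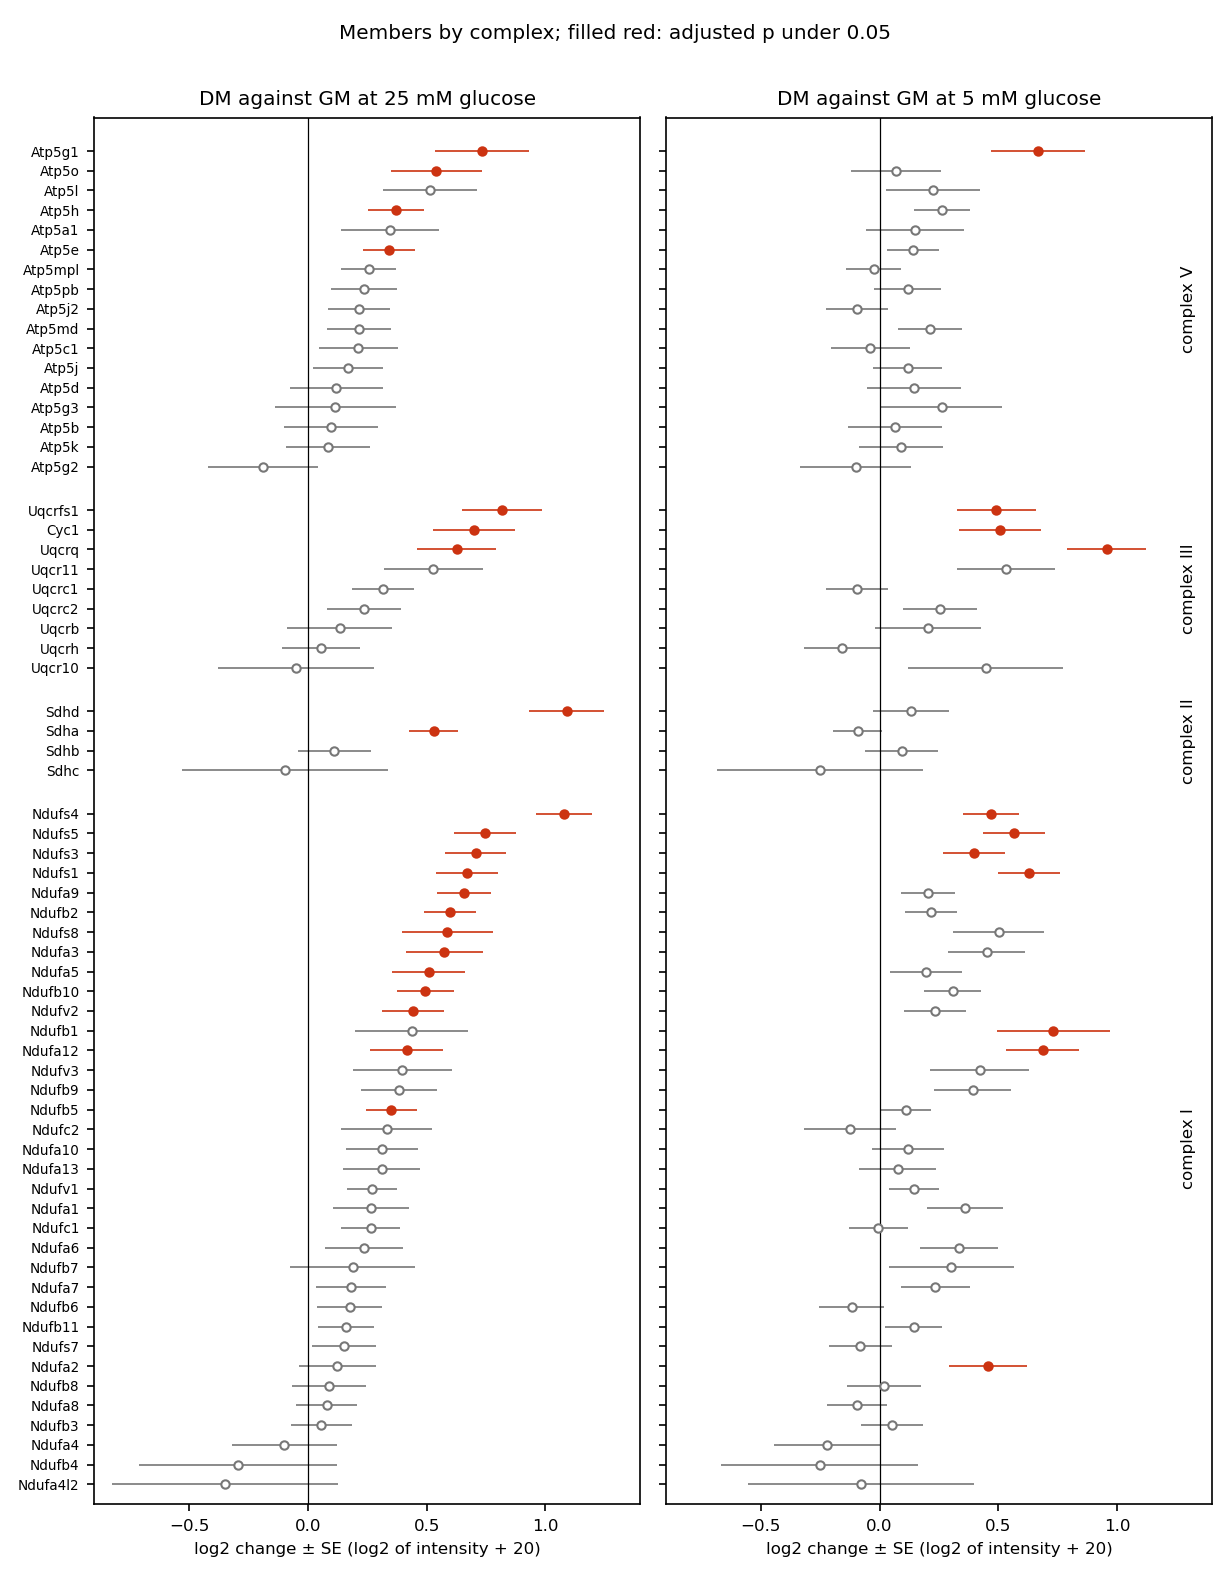
Log2 change from GM to DM (x axis, with its SE, on log2 of intensity + 20) for each of the 65 members (y axis), grouped by complex, at 25 mM glucose on the left and 5 mM on the right, with n = 3 cultures a group. The 22 and 11 members with an adjusted p under 0.05 are filled red and all lie to the right of 0, and in complex II the filled genes Sdhd and Sdha at 25 mM have no filled counterpart at 5 mM.

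In complex I the largest rise was that of Ndufs4, an accessory subunit of the matrix arm whose loss causes mitochondrial disease. Its intensity was 210, 255 and 241 in the GM cultures and 515, 548 and 489 in the DM cultures at 25 mM glucose. Every DM culture thus stood clear of every GM culture. The log2 change was 1.08 (SE 0.12, limma adjusted p 6.0e-06), or 2.11-fold. Ndufs5, another accessory subunit, read 646, 593 and 487 in GM and 878, 1121 and 935 in DM, again without overlap. Its log2 change was 0.75 (SE 0.13, limma adjusted p 0.00048).

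Core subunits of the matrix arm, which carry the electron path itself, were among the members that rose. Ndufs3 read 716, 770 and 783 in GM and 1306, 1197 and 1234 in DM at 25 mM, a log2 change of 0.71 (SE 0.13, limma adjusted p 0.00068). Ndufs1, the largest iron-sulfur subunit, read 580, 413 and 476 against 772, 842 and 741, a log2 change of 0.67 (SE 0.13, limma adjusted p 0.0011). Both genes were higher in each DM culture than in any GM culture. Ndufv1, which binds NADH and FMN, had values of 847, 792 and 875 in GM and 1018, 1045 and 976 in DM. These groups did not overlap either, but the change of 0.27 (SE 0.11) was not called (limma adjusted p 0.061). The other called complex I members, Ndufa9, Ndufb2, Ndufs8, Ndufa3, Ndufa5, Ndufb10, Ndufv2, Ndufa12 and Ndufb5, lay between 0.35 and 0.66.

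Some members with a complex I name were far from the threshold. Ndufa4, first assigned to complex I and since described as a subunit of cytochrome c oxidase, read 2551, 2960 and 2873 in GM and 2832, 3203 and 1941 in DM at 25 mM. The low DM value was that of the low-18S culture, and the change of -0.10 (SE 0.22) was not called. Its relative Ndufa4l2, known from cells short of oxygen, was dim on MB at 110, 135 and 177 in GM and 203, 64.2 and 81.8 in DM. These values overlapped widely (log2 change -0.35, SE 0.47).

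In complex II, Sdhd and Sdha rose in DM at 25 mM glucose and Sdhb did not pass the test. Sdhd, a membrane anchor that holds the heme and the ubiquinone site together with Sdhc, read 750, 725 and 635 in GM and 1451, 1568 and 1526 in DM at 25 mM. Its log2 change of 1.09 (SE 0.16, limma adjusted p 9.6e-05), or 2.13-fold, was the largest of all 65 members. Sdha, the flavoprotein that oxidises succinate, read 751, 820 and 747 in GM and 1134, 1124 and 1110 in DM. Its log2 change was 0.53 (SE 0.10, limma adjusted p 0.0010). For both genes each DM culture was above each GM culture. Sdhb, the iron-sulfur subunit, read 1395, 1371 and 1231 against 1494, 1613 and 1236, and its change of 0.11 (SE 0.15) was not called.

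Sdhc, the other anchor, depended on the probe set. The one chosen by brightness read 439, 553 and 643 in GM and 778, 202 and 786 in DM at 25 mM, which gave a log2 change of -0.10 (SE 0.43, not called). A second MA probe set of Sdhc, looked up after these values were seen, read 414, 432 and 488 in GM and 606, 733 and 813 in DM. There each DM culture was above each GM culture, with a log2 change of 0.66 (SE 0.16, limma adjusted p 0.0058). At 5 mM glucose that second probe set gave -0.20 (SE 0.16, not called).

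The promoter windows of Sdhd and Sdha are shown because both genes rose in DM at 25 mM glucose and were not called at 5 mM. They come from RefSeq (build GRCm38.p6), run 5′ to 3′ from 250 bases before to 30 bases after the annotated start, and lie on the minus strand at chr9:50603820-50604099 and chr13:74350211-74350490. Capitals mark matches on either strand to GCGCA and GCGC with any base between them, the motif of nuclear respiratory factor 1 (NRF1), to CCGGAAG, a motif of ETS factors such as GABP, and to CCAAT.
Sdhd: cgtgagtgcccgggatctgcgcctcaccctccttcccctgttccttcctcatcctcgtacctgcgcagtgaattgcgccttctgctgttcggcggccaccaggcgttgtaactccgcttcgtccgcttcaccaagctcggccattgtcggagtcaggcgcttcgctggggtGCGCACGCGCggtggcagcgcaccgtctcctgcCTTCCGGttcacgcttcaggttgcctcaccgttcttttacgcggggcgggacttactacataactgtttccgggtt
Sdha: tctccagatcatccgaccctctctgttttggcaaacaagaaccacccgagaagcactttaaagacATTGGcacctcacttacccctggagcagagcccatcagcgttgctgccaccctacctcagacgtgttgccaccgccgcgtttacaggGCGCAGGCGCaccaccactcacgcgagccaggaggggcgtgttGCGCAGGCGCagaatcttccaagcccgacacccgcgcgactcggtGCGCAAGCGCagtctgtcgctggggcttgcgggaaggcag
The Sdhd window held 1 NRF1 match and 1 ETS match, and the Sdha window held 3 NRF1 matches and 1 CCAAT match. A match says only that these letters are present.

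**Figure D2:**
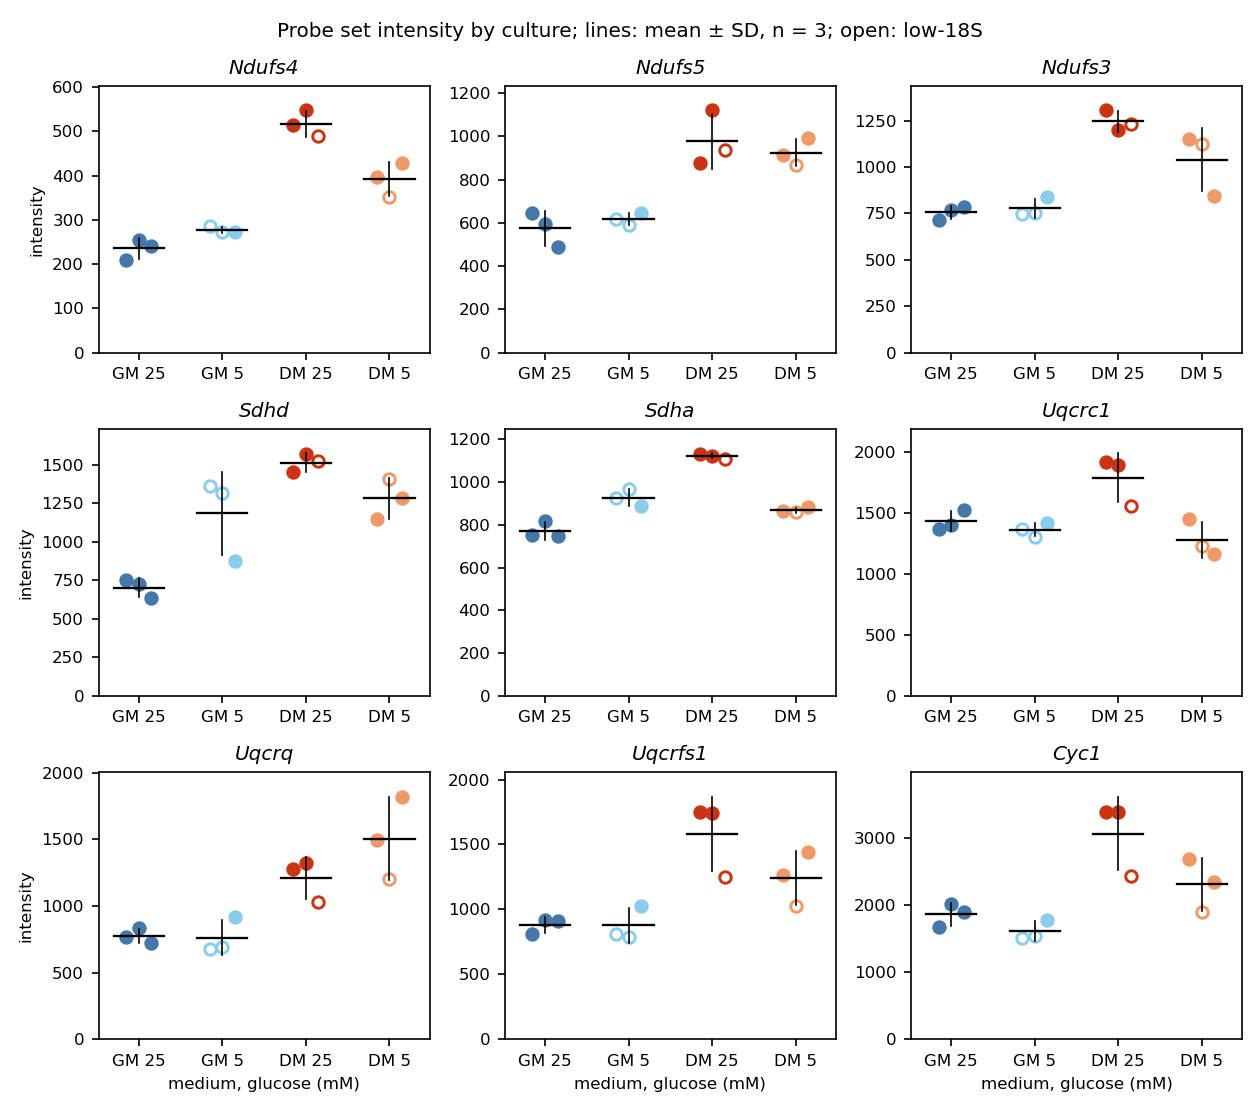
Probe set intensity (y axis, linear, from 0) in each culture of the 4 groups (x axis) for 9 members, with open circles for the 4 low-18S cultures and lines for the mean and SD, n = 3. In the panels of Ndufs4, Sdhd and Sdha the DM 25 mM cultures are highest, at 489 to 548, 1451 to 1568 and 1110 to 1134, while Uqcrq is highest in DM 5 mM, at 1199 to 1820.

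In complex III the catalytic subunits among the members, Uqcrfs1 and Cyc1, rose in DM at 25 mM glucose. Uqcrfs1, the Rieske iron-sulfur protein, read 807, 921 and 911 in GM and 1751, 1742 and 1248 in DM, a log2 change of 0.82 (SE 0.17, limma adjusted p 0.0015). Cyc1, the cytochrome c1 subunit that passes electrons on to cytochrome c, read 1676, 2016 and 1889 against 3375, 3379 and 2427 (0.70, SE 0.17, limma adjusted p 0.0055). In both genes the lowest DM value was that of the low-18S culture, and it still stood above all GM cultures. Uqcrq, a small accessory subunit, read 768, 833 and 724 against 1279, 1322 and 1033 (0.63, SE 0.17, limma adjusted p 0.0091). These groups did not overlap either. The call of Uqcrq was kept in 25 of 26 alternatives. Its log2 change ran from 0.33 to 0.82 over them, and its limma adjusted p reached 0.39.

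The core proteins of complex III, Uqcrc1 and Uqcrc2, were closer to the threshold. Uqcrc1 read 1370, 1401 and 1526 in GM and 1919, 1893 and 1563 in DM at 25 mM, without overlap, and its change of 0.31 (SE 0.13) was not called (limma adjusted p 0.075). Uqcrc2 had a change of 0.24 (SE 0.16), with overlapping values. A block for the 18S class called both at 0.36 each, with limma adjusted p of 0.0075 and 0.0033. Over all 25 alternatives the adjusted p of Uqcrc1 ran from 0.0060 to 0.20 and that of Uqcrc2 from 0.0033 to 0.53.

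In complex V 4 genes rose at 25 mM, and Atp5a1 and Atp5b of the catalytic head were not among them. Atp5a1 and Atp5b, the alpha and beta subunits that make ATP, had log2 changes of 0.34 (SE 0.21) and 0.10 (SE 0.20) and were not called. Atp5a1 read 4395, 3744 and 3251 in GM and 5181, 5492 and 3856 in DM, and Atp5b 4092, 3680 and 3361 against 4395, 4377 and 3223. For both genes the DM range reached into the GM range through the low-18S culture. Under the 18S block Atp5a1 rose by 0.48 (limma adjusted p 0.0032, from 0.0032 to 0.48 over 26 alternatives).

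Among the stalk subunits, Atp5o, which ties the stalk to the head, read 2168, 1778 and 1412 in GM and 2839, 2722 and 2193 in DM at 25 mM. Its log2 change of 0.54 (SE 0.19) passed the threshold with a limma adjusted p of 0.038. Leaving out GM 25 mM culture 3 took the adjusted p to 0.17, and the call was kept in 18 of 25 alternatives. Atp5h, subunit d of the same stalk, read 1463, 1480 and 1589 against 1953, 2025 and 1899, with no overlap and a change of 0.37 (SE 0.12, limma adjusted p 0.023). The call of Atp5h was kept in 21 of 26 alternatives. The fourth called gene, Atp5e, the epsilon subunit, changed by 0.34.

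Of the 3 genes for subunit c, which forms the rotating ring, Atp5g1 alone was called. They encode the same mature protein behind different import sequences. Atp5g1 read 1440, 965 and 943 in GM and 1970, 2106 and 1483 in DM at 25 mM, a log2 change of 0.73 (SE 0.20, limma adjusted p 0.010). The lowest DM culture stood just above the highest GM culture. Atp5g2 read 2918, 3033 and 2664 against 2916, 2937 and 1849 (change -0.19, SE 0.23), and Atp5g3 read 5208, 4779 and 4640 against 6649, 5789 and 3817 (change 0.12, SE 0.25). Neither was called, and both had their lowest value in the low-18S culture. Under the 18S block Atp5g3 rose by 0.33 (limma adjusted p 0.0082, from 0.0082 to 0.92 over 26 alternatives) and Atp5g2 was at 0.02, not called.

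The promoter windows of the subunit c genes are shown for comparison because 1 of the 3 genes was called and all make the same mature subunit. The difference between them was not tested. Build, window and capitals are as for Sdhd and Sdha, with TCAAGGTCA, the motif of estrogen-related receptors (ERR), added. They lie on the minus strand at chr11:96075602-96075881, chr15:102671018-102671297 and chr2:73911297-73911576.
Atp5g1: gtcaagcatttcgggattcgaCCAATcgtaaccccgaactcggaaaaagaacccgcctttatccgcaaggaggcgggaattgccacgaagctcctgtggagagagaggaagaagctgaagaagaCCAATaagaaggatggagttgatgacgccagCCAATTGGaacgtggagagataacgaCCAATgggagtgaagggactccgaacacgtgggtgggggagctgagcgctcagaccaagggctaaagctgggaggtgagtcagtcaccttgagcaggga
Atp5g2: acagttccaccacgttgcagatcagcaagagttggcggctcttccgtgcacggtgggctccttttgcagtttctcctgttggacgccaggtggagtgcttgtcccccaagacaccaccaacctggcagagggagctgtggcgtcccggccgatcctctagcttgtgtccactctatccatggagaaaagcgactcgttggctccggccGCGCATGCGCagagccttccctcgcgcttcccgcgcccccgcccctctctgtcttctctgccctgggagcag
Atp5g3: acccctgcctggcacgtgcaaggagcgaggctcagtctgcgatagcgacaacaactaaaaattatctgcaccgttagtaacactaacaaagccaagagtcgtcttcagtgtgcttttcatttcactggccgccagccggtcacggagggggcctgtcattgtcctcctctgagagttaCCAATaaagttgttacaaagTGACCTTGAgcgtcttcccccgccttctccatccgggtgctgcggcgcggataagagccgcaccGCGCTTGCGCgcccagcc
The Atp5g1 window held 5 CCAAT matches on both strands, of which 2 overlap, and no NRF1 match. Atp5g2 held 1 NRF1 match, and Atp5g3 held 1 each of NRF1, ERR and CCAAT.

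**Figure D3:**
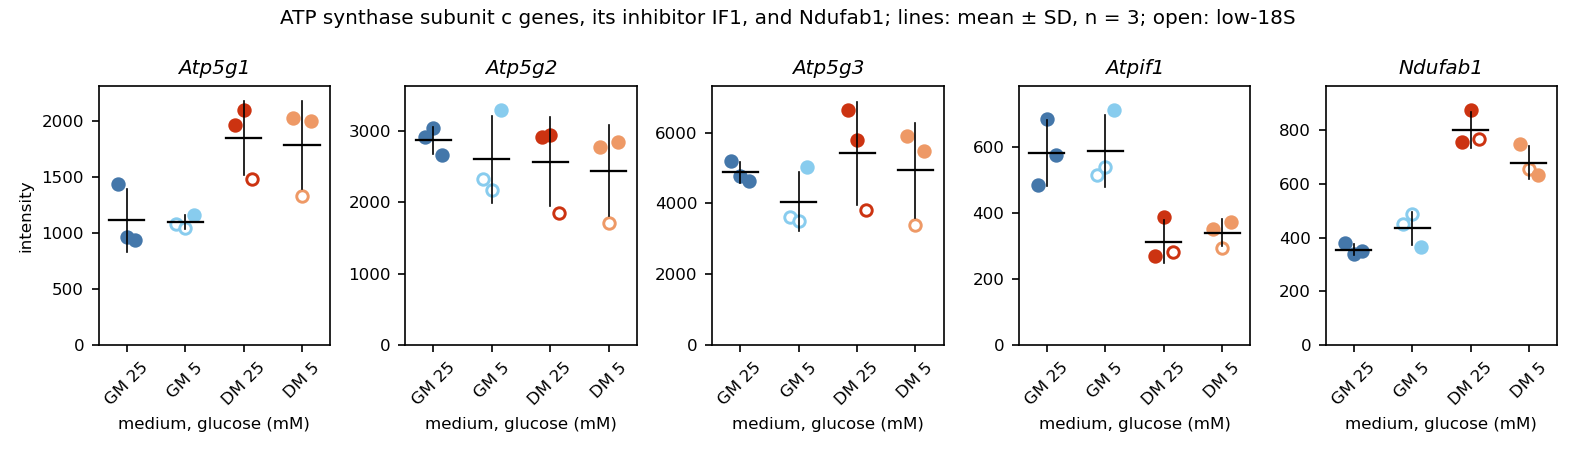
Intensity (y axis, linear, from 0) by culture and group (x axis) for the subunit c genes Atp5g1, Atp5g2 and Atp5g3, the ATP synthase inhibitor gene Atpif1, and Ndufab1, with open circles for low-18S cultures and lines for the mean and SD, n = 3. Atp5g1 and Ndufab1 are higher in DM, with group means of 1853 and 799 at 25 mM against 1116 and 356 in GM, while Atpif1 is lower, at 313 against 582.

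At 5 mM glucose 11 of 65 members rose in DM and none fell (16.9%), where 7.47% of all tested probe sets and 11.9% of those on MA rose and 9.99% of all fell. An unadjusted p under 0.05 was reached by 18 of 65 members, close to the 26.9% of all. Groups were apart and higher in DM for 18 members and lower for 1, Sdha (backgrounds 13.5% and 17.6%). The median log2 change of the members was 0.15, against -0.03 over all tested probe sets and 0.06 over the equally bright ones, of which 20.5% rose. By complex, 7 of 35, 0 of 4, 3 of 9 and 1 of 17 rose, with medians of 0.22, 0.00, 0.45 and 0.12. With the 18S class as a block these medians were 0.17, 0.02, 0.13 and 0.02. The MA members' median lay 0.23 above that of all MA probe sets as deposited and 0.11 above it after quantile normalization. Of the 11, 9 were also called at 25 mM (81.8% of these 11 and 40.9% of the 22), and Ndufa2 and Ndufb1 were not. Under the 18S block 17 members rose and 2 fell (backgrounds 10% and 11.7%). In the high-18S cultures, where GM 5 mM is 1 culture that is assumed to vary like the other groups, 7 rose and 1 fell (backgrounds 4.94% and 5.35%). Those that fell under the block were Ndufa4 (-0.41, limma adjusted p 0.0024, from 0.0024 to 0.998 over 26 alternatives) and Atp5g2 (-0.31, limma adjusted p 0.0072, from 0.0072 to 0.88), and the one in the high-18S cultures was Uqcrh (-0.54), named here after its value was seen. The count was 6 without GM 5 mM culture 1, 5 without GM 5 mM culture 2, and 6 without DM 5 mM culture 1 or 3. It was also 6 with the replicate number as a block. The share over all probe sets is not given for these refits.

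Uqcrq rose most at 5 mM glucose. It read 680, 689 and 915 in GM and 1496, 1199 and 1820 in DM, so that the lowest DM culture, the low-18S one, was still above every GM culture. The log2 change was 0.96 (SE 0.17, limma adjusted p 0.00048). The dimmer MA probe sets of Uqcrq gave 0.46 and 0.52 at 5 mM, neither called.

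Among complex I genes at 5 mM, Ndufb1, a membrane arm subunit, was dim and read 61.5, 50.5 and 34.9 in GM and 79.3, 93.7 and 108 in DM. The groups did not overlap, and the change was 0.73 (SE 0.24, limma adjusted p 0.033). The call of Ndufb1 was kept in 18 of 25 alternatives. Ndufa12, an accessory subunit of the matrix arm, read 648, 566 and 694 against 1092, 963 and 1046 (0.69, SE 0.15, limma adjusted p 0.0034), with every DM culture above every GM culture. Ndufs1 read 396, 429 and 419 against 662, 591 and 709, and was equally well separated (0.63, SE 0.13, limma adjusted p 0.0019). Ndufs4 rose by 0.47 (SE 0.12, limma adjusted p 0.0074), from 285, 273 and 272 to 397, 351 and 428. The remaining called members of complex I, Ndufs5, Ndufa2 and Ndufs3, lay between 0.40 and 0.57.

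In the later complexes Cyc1, Uqcrfs1 and Atp5g1 rose at 5 mM as they had at 25 mM. Cyc1 read 1500, 1537 and 1777 in GM and 2675, 1895 and 2342 in DM, without overlap (0.51, SE 0.17, limma adjusted p 0.039). Uqcrfs1 read 813, 787 and 1028 against 1264, 1022 and 1441, and here the low-18S DM culture fell just inside the GM range (0.49, SE 0.17, limma adjusted p 0.039). Atp5g1 read 1087, 1048 and 1166 against 2032, 1332 and 2001, with no overlap (0.67, SE 0.20, limma adjusted p 0.021). Cyc1 kept its call in 18 of 26 alternatives, Uqcrfs1 in 15 of 26 and Atp5g1 in 21 of 25.

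No complex II gene was called between media at 5 mM. Sdha read 924, 969 and 891 in GM and 866, 859 and 881 in DM, so each DM culture was slightly lower (change -0.09, SE 0.10, not called). Sdhd read 1365, 1318 and 875 in GM and 1150, 1411 and 1285 in DM, with overlap (0.13, SE 0.16, not called). The high GM values of Sdhd were both low-18S cultures, and in the high-18S cultures alone the change was 0.47 (limma adjusted p 0.057, from 0.057 to 0.88 over 26 alternatives). Sdhb gave 0.09 (SE 0.15) and Sdhc -0.25 (SE 0.43).

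Glucose alone gave no call in GM: limma called 0 members, and 4 of 65 had an unadjusted p under 0.05. Of all tested probe sets 0.00369% were called and 8.85% had such a p, a larger share than of the members. The members' median log2 change from 25 to 5 mM in GM was -0.04, and it was 0.15 with the 18S class as a block, 0.12 in the high-18S cultures and 0.08 with each array centred on its median. The 5 mM and 25 mM cultures were apart for 8 members with 5 mM higher and for 0 with 5 mM lower (backgrounds 7.3% and 8.28%). Direction in this comparison therefore turned with the setting. Sdhd had the smallest p, with 750, 725 and 635 at 25 mM and 1365, 1318 and 875 at 5 mM, a change of 0.71 (SE 0.16, limma adjusted p 0.39). Its groups did not overlap, but the only high-18S culture at 5 mM was the lowest of its group. Without that culture the change was 0.92 with a limma adjusted p of 0.030 (from 0.011 to 0.9998 over 26 alternatives). That fit compares only low-18S cultures at 5 mM with only high-18S cultures at 25 mM. Glucose and 18S class cannot be told apart in it. Within the high-18S cultures, with 1 at 5 mM, the change of Sdhd was 0.31. Sdha was also higher in each 5 mM culture (0.26, SE 0.10, limma adjusted p 0.44). In the other complexes the smallest p belonged to Ndufs4 (0.22, SE 0.12), Uqcrc2 (-0.35, SE 0.16) and Atp5md (-0.30, SE 0.14), with limma adjusted p from 0.46 to 0.49.

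In DM limma called 0 members between 5 and 25 mM glucose, and 7 of 65 had an unadjusted p under 0.05. Of all tested probe sets 0.853% were called and 8.05% had such a p. All 7 were lower at 5 mM. The median of the members was -0.16 and 54 of 65 were below 0, while the median over all tested probe sets was 0.01 and over equally bright ones 0.00. By complex the medians were -0.16, -0.17, -0.33 and -0.13. For 13 members the 5 mM and 25 mM cultures did not overlap and 5 mM was lower, and for 0 it was higher (backgrounds 6% and 6.1%). Cycling-cell genes also differed here: 3 of 4 were called lower at 5 mM (median log2 change -0.77, background 0.535%). Of the 6 genes of differentiated muscle 0 were called. The part of cell state in the members' change was not tested. Here each glucose level had 1 low-18S culture, and 54 of 65 members were below 0 within the low-18S pair and within the high-18S cultures alike, with medians of -0.17 and -0.14.

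Uqcrc1 had the largest such difference. It read 1919, 1893 and 1563 in DM at 25 mM and 1449, 1227 and 1165 at 5 mM, so that all 5 mM cultures were lower (-0.48, SE 0.13, limma adjusted p 0.10). Sdha read 1134, 1124 and 1110 against 866, 859 and 881, with a wide gap between the groups (-0.36, SE 0.10, limma adjusted p 0.12). Ndufs4 read 515, 548 and 489 against 397, 351 and 428, again apart (-0.39, SE 0.12, limma adjusted p 0.16). In complex V the smallest p was that of Atp5md, a small membrane subunit (-0.30, SE 0.14, limma adjusted p 0.44).

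Blocking on the 18S class, 6 members fell at 5 mM in DM and 0 rose (backgrounds 1.21% and 1.03%): Ndufa4, Sdha, Cyc1, Uqcrc1, Uqcrc2 and Uqcrfs1. Each DM group holds 1 low-18S culture, so the block left the log2 changes unmoved and altered only their spread. Of the 6 members, 4 belong to complex III. Their limma adjusted p with the block ran from 0.0083 for Uqcrc1 to 0.040 for Ndufa4, and over all alternatives from 0.0083 to 0.36 for Uqcrc1 and from 0.040 to 0.90 for Ndufa4. In the 8 high-18S cultures alone 0 were called. Uqcrq lay on the other side, at 1279, 1322 and 1033 against 1496, 1199 and 1820, a difference of 0.30 (SE 0.17) that was not called.

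The interaction asks whether the change from GM to DM differed between 5 and 25 mM glucose. limma called 0 members, and 6 of 65 had an unadjusted p under 0.05, close to the 9.18% of all tested probe sets with such a p. Of all tested probe sets 0.277% were called (0.0849% above 0). Sdha came nearest: its medium change was 0.53 at 25 mM and -0.09 at 5 mM, which leaves -0.62 (SE 0.14, limma adjusted p 0.091). Sdhd followed with -0.96 (SE 0.22, limma adjusted p 0.096), Ndufs4 with -0.61 (SE 0.17, limma adjusted p 0.16) and Uqcrc1 with -0.41 (SE 0.18, limma adjusted p 0.39). In complex V the smallest p was that of Atp5o, at -0.47. Of 4 cycling-cell genes 2 were called lower in the interaction (background 0.192%), and how far this carries the members' values was not tested. With the 18S class as a block 2 of 65 were called, both lower (background 0.321%): Sdha (-0.61, limma adjusted p 0.025) and Uqcrfs1 (-0.60, limma adjusted p 0.047). The adjusted p of Sdha ran from 0.020 to 0.43 over 25 alternatives, that of Sdhd from 0.0044 to 0.43 and that of Uqcrfs1 from 0.047 to 0.75.

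The level of a complex in a culture was taken as the median, over its genes, of the log2 deviation from each gene's mean over 12 cultures. Complex I was at -0.13 ± 0.06 (SD, n = 3) in GM 25 mM, -0.14 ± 0.15 in GM 5 mM, 0.19 ± 0.15 in DM 25 mM and 0.12 ± 0.14 in DM 5 mM. Complex III was at -0.06 ± 0.03, -0.31 ± 0.24, 0.29 ± 0.20 and 0.05 ± 0.29, and complex V at -0.05 ± 0.08, -0.11 ± 0.11, 0.18 ± 0.12 and 0.02 ± 0.23. In these complexes DM 25 mM had the highest mean, and the neighbouring DM 5 mM mean lay less than its own SD below it. Complex II had another order, at -0.20 ± 0.11, 0.04 ± 0.20, 0.32 ± 0.04 and 0.06 ± 0.05, with DM 25 mM clear of the other groups. This level rests on 4 genes. Among them is the chosen probe set of Sdhc, which read higher by 0.74 to 1.15 in low-18S cultures. Its part in this order was not tested.

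**Figure D4:**
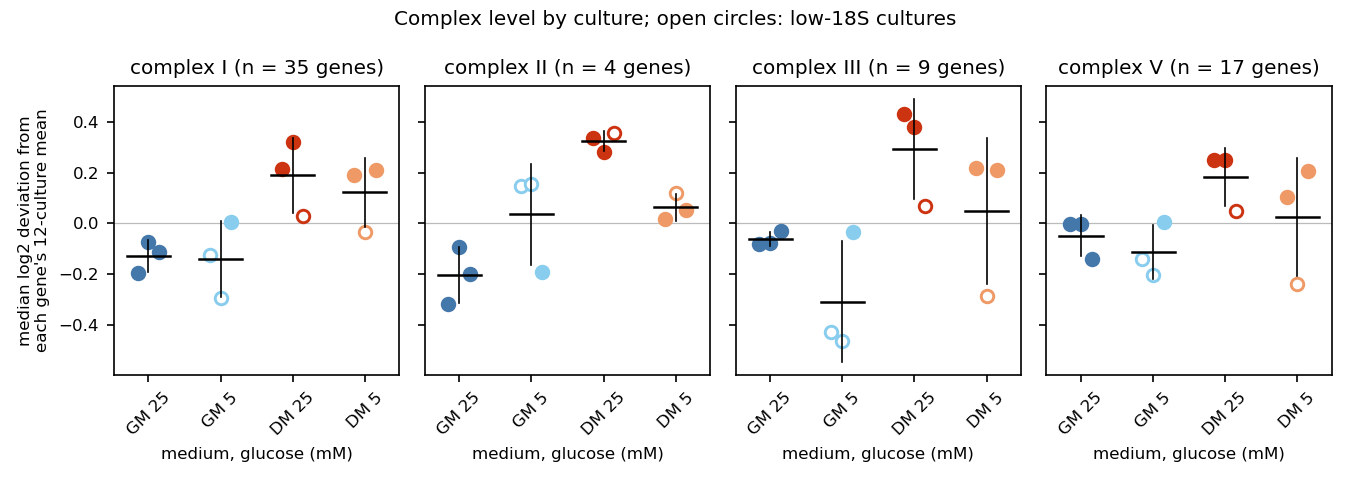
Level of each complex (y axis, median log2 deviation from each gene's mean over 12 cultures) in every culture of the 4 groups (x axis), with open circles for low-18S cultures and lines for the mean and SD, n = 3. In complexes I, III and V the open circles are the lowest of their group, and in complex II the open circles of GM 5 mM, DM 25 mM and DM 5 mM are the highest.

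Levels in the low-18S cultures stood apart within their groups. Within a group the members' median was lower in low-18S than in high-18S cultures by -0.19 in GM 5 mM, -0.28 in DM 25 mM and -0.25 in DM 5 mM, while equally bright probe sets were lower by -0.14 to -0.16. The extremes, picked after their values were seen, were Uqcr10, lower by -0.77 to -1.22, and the chosen probe set of Sdhc, higher by 0.74 to 1.15. The part of the RNA or array step behind the 18S class was not tested. Within the high-18S cultures the change from GM to DM was 0.37, 0.38, 0.41 and 0.30 (medians) for complexes I, II, III and V at 25 mM and 0.16, 0.14, 0.23 and 0.15 at 5 mM, where the high-18S GM group is a single culture. Within the low-18S cultures at 5 mM, 1 in DM and 2 in GM, the medians were 0.13, -0.10, 0.16 and -0.11, and 38 of 65 members were above 0.

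**Figure D5:**
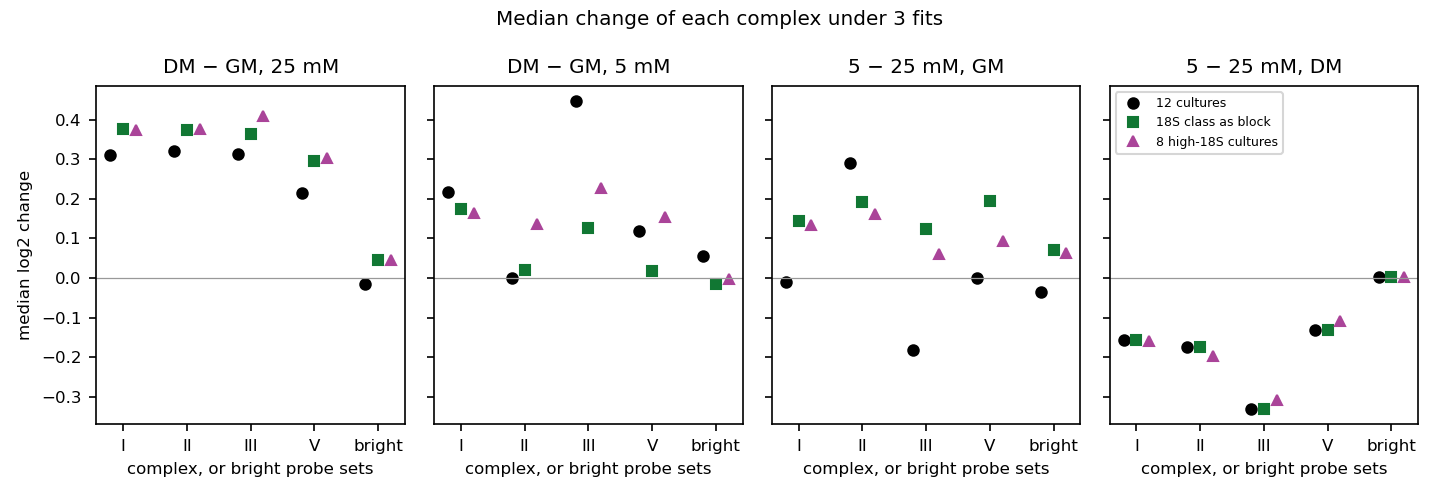
Median log2 change (y axis) of the genes of each complex and of 1638 equally bright MA probe sets (x axis) in the 4 comparisons, from all 12 cultures (circles), with the 18S class as a block (squares) and from the 8 high-18S cultures (triangles). The medium change at 25 mM lies between 0.22 and 0.41 for all complexes and fits and the glucose change in DM lies below 0 for all complexes and fits, whereas the glucose change in GM moves from -0.01 to 0.14 for complex I, from -0.18 to 0.13 for complex III and from about 0 to 0.20 for complex V once the block is added.

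A gene can be read by more than 1 probe set, and 34 members had 56 other tested probe sets. At 25 mM 15 of these 56 rose in DM and 0 fell (backgrounds 9.74% and 11.4%). At 5 mM 3 rose and 0 fell (backgrounds 7.47% and 9.99%). For the 13 members called at 25 mM that had others, 7 of 24 other probe sets were called and 17 were above 0. Other probe sets of members not called at 25 mM, 32 in all, included 8 that rose. For the 3 members called at 5 mM that had others, 0 of 7 other probe sets were called and 6 were above 0. Those of members not called at 5 mM, 49 in all, included 3 that rose. Of the 65 chosen probe sets 28 carry a suffix (x, s or a) that marks sequence shared with other transcripts or transcript variants, and signal of close relatives cannot be told apart there.

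Genes around the complexes were taken from lists of the same pathway. Of the complex IV subunits 13 of 17 were tested and 2 rose in DM at each glucose level (backgrounds 9.74% and 7.47%). These were Cox6a2 by 3.21 and 3.44 and Cox8b by 2.44 and 2.99, at 25 and 5 mM. Both are the forms typical of skeletal and heart muscle. The median over the 13 was 0.13 at 25 mM, and the other 11 were not called. Under the 18S block 9 of 13 rose at 25 mM (background 11.2%), with a median of 0.34. At 5 mM the median was 0.23 without the block and near 0 with it. Under the block 2 rose and 1, Cox6a1, fell by 0.29 at 5 mM (backgrounds 10% and 11.7%). Of 40 tested assembly and quality genes 8 rose at 25 mM and 7 at 5 mM, and none fell. These are 20% and 17.5% of the list, where 9.74% and 7.47% of all tested probe sets rose. Of the bright MA probe sets 23.1% and 20.5% rose, but many genes of this list are dimmer than those. In the high-18S cultures 7 rose at 25 mM (background 8.97%). At 5 mM, where GM has 1 high-18S culture, the median change of the list was 0.08. Under the block 9 and 8 rose (backgrounds 11.2% and 10%), and Surf1 fell at 5 mM (background 11.7%). The largest were Sco1, a copper chaperone (1.19 and 1.37), Uqcc1, which helps build cytochrome b (0.99 and 0.91), and Ndufaf4, a complex I assembly factor (0.86 at 25 mM).

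Of 10 tested electron carriers and exchangers 4 rose at 25 mM and 0 at 5 mM (backgrounds 9.74% and 7.47%). At 5 mM 1 of them, Vdac1, fell by 0.33 under the 18S block (background 11.7%). Vdac1, Cox6a1 and Surf1 are named after their values were seen. Cycs, cytochrome c itself, read 1793, 1219 and 958 in GM and 2121, 2602 and 1936 in DM, without overlap (0.77, SE 0.20, limma adjusted p 0.0086). Etfa, which brings electrons from fatty acid oxidation, read 713, 748 and 845 against 1109, 1135 and 984.5 at 25 mM (0.48, SE 0.11, limma adjusted p 0.0038). In DM at 5 mM it read 723, 726 and 751, so it also fell with lower glucose there (-0.54, SE 0.11, limma adjusted p 0.022).

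A subunit and an inhibitor outside the name pattern went opposite ways. Ndufab1, the acyl carrier protein that is also a complex I subunit, read 378, 340 and 348 in GM and 755, 876 and 765 in DM at 25 mM, and rose by 1.12 (SE 0.13) there and by 0.63 (SE 0.13, limma adjusted p 0.0017) at 5 mM. Atpif1, whose protein IF1 blocks the ATP synthase when it runs backwards, read 486, 685 and 574 in GM and 269, 387 and 283 in DM at 25 mM. It fell by 0.86 on the log2 scale (SE 0.17, limma adjusted p 0.0014) at 25 mM and by 0.75 (SE 0.17, limma adjusted p 0.0043) at 5 mM, with no overlap between GM and DM cultures at either glucose level. Of 13 tested regulators of nuclear and mitochondrial transcription, Ppargc1b, a coactivator, rose at 25 mM (0.70, SE 0.23, limma adjusted p 0.031), and Polg, the mitochondrial DNA polymerase, fell at both glucose levels by 0.50 and 0.49. Each of these counts, 1 of 13, is below the share of all tested probe sets: 9.74% higher at 25 mM, and 11.4% and 9.99% lower. In the high-18S cultures the call of Ppargc1b and the 5 mM call of Polg were lost. Ppargc1a was below the filter. Nrf1 and Gabpa, which encode factors for the motifs above, were not called in any comparison.

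Promoter windows were found for 54 of the 65 members (59 windows). NRF1 matches were in 23.7% of member windows and in 4.41% of all 32851 windows of the same length, and ETS matches in 23.7% and 8.45%. CCAAT was in 39.0% and 36.1%, the E-box CAGCTG, bound by MyoD and myogenin, in 8.47% and 14.9%, and the ERR motif in 1 member, Atp5g3, and 0.417% of all. Of the 19 members with a window that rose in DM at 25 mM, 6 held an NRF1 match, as did 7 of 35 that were not called. For ETS the numbers were 5 of 19 and 9 of 35.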

How the data were processed

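Total RNA of 12 C2C12 cultures was biotin-labelled and measured on 2 array designs, MA and MB, giving 24 arrays. The authors deposited an intensity for each probe set, already scaled to a common trimmed mean. The software and its settings are not given in the sources used here. From these intensities log2(intensity + 20) was computed, and control probe sets and those with a mean in the lower 40% of a design were left out, which kept 13575 probe sets on MA and 13506 on MB. limma 3.58.1 with statmod 1.5.0 in R 4.3.3 fitted 4 group means on each design, with a trended variance. p-values were adjusted over each design by Benjamini-Hochberg and called under 0.05. The pseudocount makes the changes of dim probe sets look smaller. Comparisons of media and of glucose levels share cultures and are not independent.

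The text names 17 fixed members, the 3 called members of each complex with the largest change in each comparison (or the smallest p), and up to 3 called genes of each other list. Members and lists were chosen with earlier results of these data known. Alternatives were other pseudocounts, filters, scalings, variance models, array sets, array weights, blocks, probe set rules and each culture left out in turn. The code was tested on simulated data. Replicate numbers gave no sign of pairing. Over 18 same-numbered pairs the correlation of deviations ran from -0.56 to 0.52, and over 36 other pairs from -0.58 to 0.72. The 18S class falls on different numbers in different groups, so this check cannot exclude pairing. Promoter sequences come from RefSeq, build GRCm38.p6. The number of arrays limits the precision.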

Additional observations from a re-analysis of the deposited data

How the results depend on the processing

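None of 19 called single-gene results for which alternatives were run changed sign, but counts of called members moved. At 25 mM glucose the 22 members that differed between DM and GM became 41 with median centring, 46 with the 18S class as a block and 40 in the high-18S cultures, and 13 to 24 with each culture left out. At 5 mM the 11 became 7 with no filter, 7 with only the arrays compared, 26 with array weights, 19 with the 18S class as a block (17 higher and 2 lower), and 5 to 15 with each culture left out. With the replicate number as a block the counts were 20 at 25 mM and 6 at 5 mM, and whether the numbers pair the cultures is not known. In GM the count for glucose, 0, became 2 with array weights and 0 to 1 with each culture left out. In DM it became 1 with quantile normalization and 6 with the 18S class as a block, and stayed 0 with each culture left out. The interaction's 0 became 1 with a filter at the 60th percentile, 2 with median centring, 3 with array weights, 2 with the 18S class as a block, and 0 to 1 with each culture left out. Apart from the 18S block and the high-18S cultures, no share over all probe sets is given for these settings. Such counts do not show that members moved more than other probe sets. Median centring moved all MA probe sets by 0.20 at 25 mM and left the MA members' median 0.42 above theirs, as before. The cause of the moves in the counts was not tested. The members' median ran from 0.22 to 0.47 for medium at 25 mM, from 0.08 to 0.26 at 5 mM, from -0.11 to 0.15 for glucose in GM, from -0.25 to -0.06 for glucose in DM and from -0.29 to -0.03 for the interaction. Over those 19 results, 29 of 228 checks with a culture left out and 17 of 259 other checks lost the call. With 3 cultures a group, small changes of bright genes are hard to separate from the 18S class.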
